A study of Mus musculus with 108 samples.

Results

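The fragments recovered from YFP-positive cells were compared between FLK1+ hemangioblast cells (HB) and early hemogenic endothelium (HE1), using all libraries labelled with these stages and a Low, Medium, High or Medium/High reporter gate. They numbered 28 of the 108 samples of the series, 14 for HB and 14 for HE1, among 95 sorted libraries. The lists of one stage and replicate number were united, which gave 5 HB and 5 HE1 positive sets. The 10 Negative libraries of both stages were used as the comparison without reporter activity.

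In this screen, open chromatin fragments cut out by the Tn5 transposase in cells of each of the 5 differentiation stages were cloned before a minimal HSP68 promoter and the Venus-YFP reporter. The plasmids were recombined into the Hprt locus of HM-1 mouse embryonic stem cells, which lack a functional copy of it and regain one on recombination. HB cells carried the FLK1 receptor and came from embryoid bodies. HE1 cells came from blast culture and were sorted as KIT+ TIE2+ CD41-. At both stages the cells were then sorted by reporter brightness into Negative, Low, Medium and High gates, or into Negative, Low and Medium/High in replicate 5. All groups thus shared the HM-1 line, the serum culture and the single integration site, and differed in the stage of the cells and in the gate. The labels also name a separate plasmid library for each stage, so the stage and the content of its library cannot be told apart. No treatment was compared here. The labels number the replicates, but no source used here says that they came from separate cultures, so p-values measure only the spread between these sets, which may be technical.

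The hemangioblast is a mesodermal cell that can give rise to both endothelium and blood. Hemogenic endothelium is vessel lining from which blood cells bud, and its first stage still carries an endothelial programme with little of the blood regulator RUNX1. A distal regulatory element acts in a reporter when transcription factors of the host cell bind its sequence. ETS, GATA and SOX factors, RUNX1, the E-box binding factor TAL1, AP-1 and TEAD, the factor that binds DNA with YAP, are known for roles on this path.

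Each library was a list of distinct fragments without read numbers, split by the authors into distal fragments and promoter fragments. Positive libraries held between 993 and 64042 fragments for HB (median 18262) and between 634 and 128746 for HE1 (median 6741.5 in 14 libraries). The 5 HB positive sets held 33988, 34706, 11954, 1802 and 569 distal fragments, and the 5 HE1 sets held 79799, 67575, 1132, 3080 and 864. Replicates 1 and 2 therefore carried most of the fragments, and which stage had the larger set changed between replicates. Across the 38 libraries 667993 distinct fragments were listed, of 68 to 600 bp. The 218006 distal ones fell, where overlapping ones were merged, into 43160 sites (median width 283 bp). A locus is the distal fragments whose nearest protein-coding transcription start belongs to one gene, and a promoter is the promoter fragments within 1500 bp of such a start.

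Several HE1 libraries held fragments of another library. Counted as a percentage of the smaller list, HE1 Low of replicate 4 had 83.0% in common with HE1 Negative of replicate 3 and 51.2% with HE1 Negative of replicate 4. HE1 Medium of replicate 2 had 78.5% in common with HE1 Negative of replicate 1. Among HB libraries the highest value was 41.5%, between Low and Medium of replicate 4. Results are therefore also given without the HE1 libraries Medium 2, Low 4, Negative 1 and Negative 3. Of all distinct fragments, 81.2% were identical to a fragment of a plasmid list. The cells could not be checked against marker genes, because the lists hold inserted DNA and no RNA.

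The sequences of 6 distal sites and of 2 promoters are shown because the results below turn on them. Each site is given as the 300 bases around the point that most fragments covered, on the plus strand of GRCm38 (mm10). The Phf19 window is chr2:34905075-34905374, the Limd1 window chr9:123461872-123462171 and the Rbx1 window chr15:81514308-81514607. All 3 lay in sites that were listed in HE1 and in no HB set. The Kremen1 window is chr11:5318110-5318409 and the Rpn2 window chr2:157248165-157248464, both from sites listed in HB and in no HE1 set. The Mecom window is chr3:30354193-30354492, in the distal element of that gene that the study tested by deletion. Promoter sequences are from RefSeq (GRCm38.p6, minus strand), chr1:88277530-88277829 for Hjurp and chr7:80803282-80803581 for Iqgap1. Capitals mark matches, on either strand, to the 8 motifs counted further on: TGANTCA for AP-1, GGAATG for TEAD, AGATAA for GATA factors, AGGAAG for ETS, TGTGGT for RUNX, CAGATG for the E-box, ACAAAG for SOX and ATGCAAAT for OCT.
Phf19 site: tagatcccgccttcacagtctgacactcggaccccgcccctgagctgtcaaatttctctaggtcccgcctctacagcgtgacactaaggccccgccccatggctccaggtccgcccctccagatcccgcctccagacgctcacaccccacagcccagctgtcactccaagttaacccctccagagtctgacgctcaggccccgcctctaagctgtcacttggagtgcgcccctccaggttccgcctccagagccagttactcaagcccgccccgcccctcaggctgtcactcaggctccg
Limd1 site: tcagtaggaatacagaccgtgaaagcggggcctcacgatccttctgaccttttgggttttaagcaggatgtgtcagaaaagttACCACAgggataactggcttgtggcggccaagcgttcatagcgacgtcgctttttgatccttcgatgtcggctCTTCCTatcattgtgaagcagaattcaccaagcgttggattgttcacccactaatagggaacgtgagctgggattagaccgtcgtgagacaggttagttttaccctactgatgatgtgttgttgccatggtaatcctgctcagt
Rbx1 site: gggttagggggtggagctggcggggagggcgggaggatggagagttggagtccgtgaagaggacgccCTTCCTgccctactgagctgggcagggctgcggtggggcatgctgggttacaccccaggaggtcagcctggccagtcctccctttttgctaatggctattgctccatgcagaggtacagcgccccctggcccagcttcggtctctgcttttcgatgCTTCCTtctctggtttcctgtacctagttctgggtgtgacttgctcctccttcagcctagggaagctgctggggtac
Kremen1 site: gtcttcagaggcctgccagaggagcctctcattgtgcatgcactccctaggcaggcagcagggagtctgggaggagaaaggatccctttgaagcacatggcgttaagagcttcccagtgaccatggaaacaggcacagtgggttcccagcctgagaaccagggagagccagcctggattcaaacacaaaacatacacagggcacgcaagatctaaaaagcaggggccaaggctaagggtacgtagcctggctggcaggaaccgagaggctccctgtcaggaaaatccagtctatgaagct
Rpn2 site: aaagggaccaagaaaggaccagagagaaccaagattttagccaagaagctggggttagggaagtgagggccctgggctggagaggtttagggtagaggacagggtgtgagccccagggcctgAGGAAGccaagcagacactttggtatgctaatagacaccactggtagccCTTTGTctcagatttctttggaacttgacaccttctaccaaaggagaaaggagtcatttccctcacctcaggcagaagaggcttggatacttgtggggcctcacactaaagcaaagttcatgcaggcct
Mecom site: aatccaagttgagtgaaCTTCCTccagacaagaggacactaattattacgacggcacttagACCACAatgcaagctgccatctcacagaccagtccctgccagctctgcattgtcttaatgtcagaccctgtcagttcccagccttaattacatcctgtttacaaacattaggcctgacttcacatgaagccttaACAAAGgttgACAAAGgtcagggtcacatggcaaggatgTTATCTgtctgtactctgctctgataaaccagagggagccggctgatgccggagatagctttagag
Hjurp promoter: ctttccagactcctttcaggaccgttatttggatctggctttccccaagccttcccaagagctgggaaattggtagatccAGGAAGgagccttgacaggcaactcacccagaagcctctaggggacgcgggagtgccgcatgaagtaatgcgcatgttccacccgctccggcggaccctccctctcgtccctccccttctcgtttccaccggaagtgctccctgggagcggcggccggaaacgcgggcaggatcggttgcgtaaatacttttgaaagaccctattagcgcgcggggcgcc
Iqgap1 promoter: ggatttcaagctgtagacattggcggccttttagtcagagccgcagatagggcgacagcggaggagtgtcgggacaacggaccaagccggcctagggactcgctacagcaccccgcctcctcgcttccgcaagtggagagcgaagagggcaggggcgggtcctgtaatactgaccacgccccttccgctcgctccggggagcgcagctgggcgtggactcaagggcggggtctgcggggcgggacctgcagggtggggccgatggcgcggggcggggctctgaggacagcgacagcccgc

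The Phf19 and Kremen1 windows held none of the 8 motifs, and neither did the Iqgap1 promoter. The Rbx1 window held 2 ETS matches, the Limd1 window 1 ETS and 1 RUNX match, and the Rpn2 window 1 ETS and 1 SOX match. The Mecom window held 1 GATA, 1 ETS, 1 RUNX and 2 SOX matches. The Hjurp promoter held 1 ETS match. Over all 43156 site windows of this length an ETS match was found in 49.6%, GATA in 18.9%, AP-1 in 17.5%, RUNX in 23.1%, SOX in 24.5%, TEAD in 20.0%, the E-box in 25.2% and OCT in 1.43%. Over 32851 promoters of the same length the shares were 35.4%, 11.2%, 7.81%, 16.8%, 18.7%, 14.7%, 17.2% and 1.74% in the same order. A match describes these letters and is not evidence of binding. Of the 281 20-base words in the Limd1 window, 244 (86.8%) also occurred elsewhere on the main chromosomes, so fragments there could have come from another copy. That share was 17.8% for the Rpn2 window and at most 1.78% for the other 4 sites.

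The first question was how many loci and promoters were gained and lost between the stages when equal numbers of fragments were compared. With same-numbered lists reduced to equal numbers and pooled, 72197 positive distal fragments at each stage fell in 20559 HB sites and 24230 HE1 sites. Of these, 10243 sites were listed at both stages. A further 10316 sites, 50.2% of those of HB, were lost, and 13987 sites, 57.7% of those of HE1, were gained. Lost and gained mean here only that a feature was not listed at the other stage. Such shares were not computed between sets of the same stage, so the part that sampling had in them was not tested. Promoters were compared at 179329 fragments at each stage, and most were listed again. Of 12908 HB promoters 948.83 (7.35%) were lost and of 12758 HE1 promoters 798.08 (6.26%) were gained, the decimals being expected values over all draws. Over HB sites of the Negative lists, with 25847 fragments at each stage, the lost share was 53.8% and the gained share of HE1 sites 61.2%, and over promoters with 66158 fragments they were 11.2% and 11.8%. Fewer fragments per feature find fewer features again. At these depths the shares can therefore be set against each other neither between positive and Negative lists nor between sites and promoters.

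At matched depth within each replicate number, the share of HB features listed again in HE1 did not pass a test of positive against Negative cells. When all 4 lists of a replicate number were reduced to the smallest, 35.9, 32.0, 7.04, 9.97 and 10.3% of HB positive sites in replicates 1 to 5 were listed again in HE1. For Negative sites the shares were 35.2, 35.0, 8.64, 26.6 and 14.6%. The positive share was 19.04% ± 13.8 (SD, n = 5) and the Negative share 24.0% ± 12.03, a difference of -4.98 percentage points that was higher in positive cells in 1 of 5 replicate numbers (exact two-sided permutation test, p = 0.548). For promoters the shares were 82.4, 78.0, 23.6, 18.4 and 19.1% in positive cells and 82.0, 77.7, 21.6, 38.6 and 24.9% in Negative cells. Their means of 44.3% ± 32.9 and 49.0% ± 28.9 differed by -4.66 points, higher in positive cells in 3 of 5 (exact two-sided permutation test, p = 0.643). All 4 lists of a replicate number were cut to 1 size, so the values are matched by number, and with the replicate number as a block the exact permutation p was 0.125 for sites and 0.50 for promoters, where 5 replicate numbers cannot give less than 0.0625. In both kinds of cells the values of replicates 1 and 2 stood well above those of the other replicates, which were compared at between 379 and 1132 distal fragments. Without the libraries that share fragments the site difference was -7.80 points over 3 replicate numbers, and the exact permutation p was 0.50. Part of what was listed again was the very same fragment: in positive sets this held for 29.7, 41.1, 5.06, 71.5 and 78.8% of the sites listed at both stages. In Negative lists it held for 17.2, 9.27, 10.6, 97.5 and 85.2%. The Negative sites of replicate 4, where the positive and Negative shares lay furthest apart, thus rested on identical fragments in 115 of 118 cases.

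**Figure D1:**
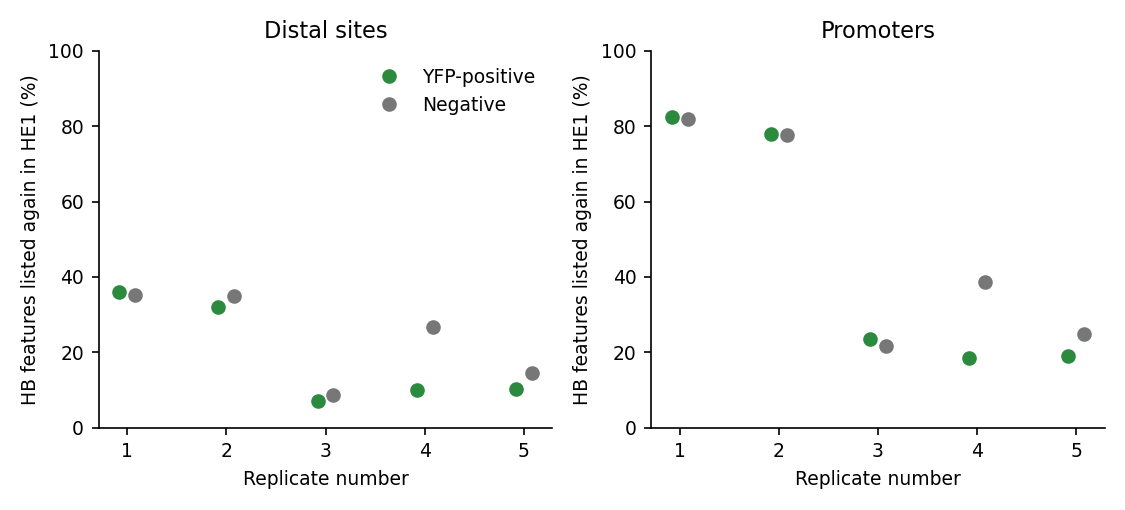
Share of HB features listed again in HE1 (percent, y axis) for replicate numbers 1 to 5 (x axis) at equal fragment numbers, for YFP-positive and Negative cells, distal sites and promoters in separate panels. Positive and Negative values lay close together in replicates 1 to 3, and Negative values were higher in replicates 4 and 5.

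Most gains and losses did not recur in 3 or more sets. In the same reduction drawn once, 13936 sites were listed in at least 1 HE1 set and in no HB set, 4572 of them in at least 2 HE1 sets, 365 in at least 3 and 23 in at least 4. Sites lost in the same sense numbered 10304, 3061, 285 and 18. Of the gained sites 54.3% rested on a single fragment, as did 60.3% of the lost ones. Promoters gained in at least 1, 2, 3 and 4 sets numbered 796, 499, 135 and 38, and lost promoters 950, 463, 57 and 9. Loci gained numbered 2167, 1069, 98 and 9 and loci lost 1526, 648, 96 and 7. The Negative lists had the same form, with 8469, 1614, 95 and 2 gained sites and 6189, 1544, 117 and 6 lost sites. For positive sets the reduction left 33988 and 34706 distal fragments a stage in replicates 1 and 2. It left 1132, 1802 and 569 in replicates 3 to 5, so list size limited how far a feature could recur beyond 2 sets.

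The positive gains and losses were looked up in the complete Negative lists of the same stages. Of the 13936 gained sites, 65.2% were listed in Negative cells of HE1 and not of HB, 0.667% in Negative cells of HB and not of HE1, and 32.6% in neither. These gained sites made up 60.2% of all sites listed in HE1 Negative cells only. Of the 10304 lost sites, 27.1% were listed in Negative cells of HB only and 4.13% in those of HE1 only, and the former were 60.3% of all sites listed in HB Negative cells only. Among promoters, 71.1% of the 796 gained and 44.6% of the 950 lost were listed in Negative cells of that same stage only. They were 35.0% and 56.2% of the promoters listed in Negative cells of HE1 only and of HB only. These shares depended on the HE1 libraries that share fragments, of which HE1 Negative of replicate 1 held most of the HE1 Negative fragments. Without those libraries, in a comparison added after the data had been seen, 25.4% of 12942 gained sites were listed in Negative cells of HE1 only, 1.81% in those of HB only and 71.8% in neither. Of 824 gained promoters 40.2% were then listed in Negative cells of HE1 only. For lost sites and promoters the shares listed in Negative cells of HB only were 30.6 and 49.9%. Leaving these libraries out also made the HE1 Negative lists shorter, and both changes cannot be told apart.

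Gained and lost sites differed in place and sequence. Gained positive sites lay in introns in 48.9% and in exons in 3.95%, against 43.0% and 8.94% of lost and 41.5% and 9.62% of kept sites. Their median distance to a transcription start was 26646 bp, against 21390 bp for lost and 16620 bp for kept sites. The mean GC content of the windows was 49.5% in gained, 52.9% in lost and 54.7% in kept sites. An AP-1 match was found in 25.5% of gained, 9.45% of lost and 13.0% of kept windows, and an ETS match in 57.2, 42.3 and 46.1%. GATA matches were found in 22.4, 15.8 and 15.4%, and OCT matches, the octamer bound by the pluripotency factor OCT4, in 1.11, 1.90 and 1.35%. The classes of the Negative lists were much alike, with AP-1 matches in 24.3% of gained, 10.2% of lost and 12.8% of kept windows. Sites are not replicates, and these class values are descriptions without a test.

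The plasmids that entered the cells already differed between the stages. The pSKB lists, which hold the fragments of the reporter vector library before transfection, had 1952358 fragments for HB and 1733003 for HE1. Among gained positive sites 67.4% had more pSKB fragments in the HE1 than in the HB library, against 38.1% of kept and 14.0% of lost sites. In the Negative lists the shares were 63.8, 42.8 and 20.9%. Over all 20 sets, 1802 sites with 10 or more fragments were listed in HE1 only and 107 in HB only, in a comparison in which the HE1 lists were the larger. The HE1-only sites had a median of 2 pSKB fragments in the HB library and 12 in the HE1 library, and 91.0% of them had more in the latter. The HB-only sites had a median of 17 in the HB and 8 in the HE1 library. The 12390 sites listed at both stages had 7 and 6. What part the cloned content had in the stage difference was not tested.

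Promoters stood apart from sites in this respect. The 292 promoters with 10 or more fragments that were listed in HE1 only had a median of 52.5 pSKB fragments in the HB and 53 in the HE1 library, close to the 48 and 47 of the 12257 promoters listed at both stages. Of the 292, 271 had 10 or more pSKB fragments in the HB library and were yet in none of the 10 HB lists, positive or Negative. Among the 1802 HE1-only sites 186 were of this kind. The 39 promoters listed in HB only had medians of 36 and 26. Without the libraries that share fragments the HE1-only features numbered 573 sites and 211 promoters and the HB-only ones 111 and 42. Without replicate 1 they were 295 and 179 against 13 and 10, and without replicate 2 they were 640 and 232 against 20 and 6. These alternatives were chosen after the data had been seen. The methods do not say if the open chromatin peaks used as a filter were those of the same stage, and the part of such a filter was not tested.

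**Figure D2:**
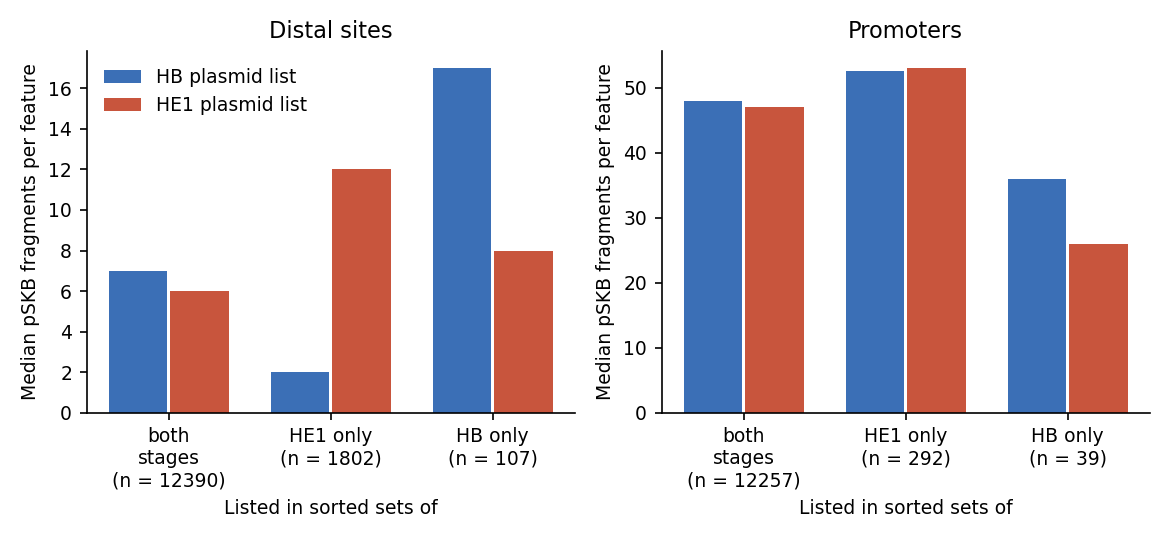
Median number of pSKB plasmid fragments per feature (y axis) in the HB and the HE1 reporter library, for sites and promoters listed at both stages, in HE1 only or in HB only (with 10 or more fragments where at 1 stage only). HE1-only sites had medians of 2 and 12, while HE1-only promoters had 52.5 and 53.

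Single features were tested with limma, on fragments per 10000 of the list, as log2 after adding 1. None passed an adjusted p of 0.05 between HB and HE1 positive sets. Of 8277 sites tested 0 were called (0%) and 173, or 2.09%, had an unadjusted p under 0.05. Of 11433 promoters 0 were called and 227, or 1.99%, were under it. Of 6587 loci 0 were called and 150, or 2.28%, were under it. In the Negative lists 0 were called, with 0.658% of 2585 sites, 0.708% of 7912 promoters and 0.783% of 3191 loci under an unadjusted p of 0.05. The test of whether the stage difference itself differed between positive and Negative cells called 0 of 14123 sites, 0 of 12540 promoters and 0 of 8485 loci, with 0.878, 1.43 and 1.39% under an unadjusted p of 0.05.

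When sets were weighted by their fragment numbers (limma with voom precision weights), a few features passed. They were 5 sites (0.0604% of those tested), 27 promoters (0.236%) and 23 loci (0.349%). Higher in HE1 were 2 sites, 24 promoters and 20 loci. In the Negative lists the weighted test called 0 of each kind. For the difference between positive and Negative cells it called 60 sites (0.425%), 0 promoters and 6 loci (0.0707%). Of the features called in positive sets it held none of the 5 sites and 27 promoters above, and 1 of the 23 loci, that of Pqlc2. The 2 sites that rose in HE1 with weights lay near Phf19 and Limd1, and the 3 that fell lay near Kdm6b, Sox12 and Foxn3. Both rising sites and 22 of the 24 rising promoters were in no HB set of any gate, and all of these were also listed in HE1 Negative cells. Such features could enter the test, which needed fragments in 4 sets, only through HE1, so these calls are given as a description and support no stage difference. The same holds for the 3 sites that fell, which were in no HE1 set. It also holds for the loci of Phf19 and Rbx1, which rose with weights and were in no HB set. All 24 promoters had 10 or more pSKB fragments in the HB library. The 3 promoters that fell with weights were those of Ppp1r13l, Prcp and the mitochondrial gene mt-Nd2. That of mt-Nd2 held 59 fragments in HB positive sets and 0 in HE1, so it entered the test through HB alone. It had 0 pSKB fragments in both libraries.

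Of the named sites higher in HE1, the Phf19 site at chr2:34904729-34905546, in an intron 8839 bp from the start of that gene, held the most fragments. Phf19 encodes a partner of the Polycomb repressive complex. The 5 HB positive sets held 0 fragments and the 5 HE1 sets 61, 62, 3, 0 and 2, while the Negative lists held 0 in every HB set and 45, 16, 0, 0 and 1 in HE1. HE1 replicate 4 was thus at 0 like HB, and the other HE1 sets were above it. The difference was 3.17 ± 1.00 (log2, SE), with an adjusted p of 0.942 in limma, and the site entered the test through its 4 HE1 sets alone. The pSKB libraries held 154 fragments for HB and 170 for HE1, so the site was cloned to a like extent at both stages. Its HE1 fragments came from the Low (45), Medium (51) and High (50) lists, some of them in more than 1 gate, and none from the Medium/High list of replicate 5.

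The Limd1 site, in an exon nearest to the gene of a LIM-domain scaffold protein, held 0 fragments in HB and 44, 29, 0, 7 and 1 in HE1 positive sets. Its Negative lists held 0 in HB and 17, 1, 4, 0 and 0 in HE1. The difference was 2.67 on the log2 scale, with an adjusted p of 0.942 in limma, and this site too was tested through 4 HE1 sets alone. This is the site whose letters recur elsewhere in the genome.

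Only 2 sites (0.0242% of 8277) had all 5 HE1 values above all 5 HB values, and 3 (0.0362%) the reverse. The first, at chr15:81514072-81514596 near Rbx1, the RING subunit of cullin ubiquitin ligases, held 0 fragments in every HB set and 9, 12, 1, 1 and 1 in HE1. Its Negative lists held 0 in HB and 10, 2, 0, 0 and 0 in HE1. The difference was 2.32 on the log2 scale (limma, unadjusted p = 0.00872, adjusted p = 0.942). This first site, being at 0 in HB, entered the test through HE1 alone. The second, at chr14:75834108-75834858 near Tpt1, which encodes a translationally controlled tumor protein, held 1, 0, 0, 0 and 0 fragments in HB and 15, 5, 1, 1 and 2 in HE1. In the small sets such values rest on 1 or 2 fragments each.

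In the other direction lay sites near Cactin, Qdpr and Ltbp2. The Cactin site, in an exon near this splicing-associated gene, held 2, 3, 1, 1 and 1 fragments in HB and 0 in all HE1 positive and Negative lists. The Qdpr site, near the gene of a pterin reductase, held 2, 1, 1, 1 and 1 in HB and 0 in HE1. The Ltbp2 site, near the gene of a latent TGF-beta binding protein, held 3, 7, 2, 1 and 1 in HB and 2, 4, 0, 0 and 0 in HE1. The site at chr11:5318159-5318575 near Kremen1, a receptor that restrains Wnt signalling, followed by its p with 0, 2, 2, 1 and 2 fragments in HB and 0 in HE1. The site at chr2:157248045-157248640 near Rpn2, a subunit of the oligosaccharyltransferase, held 1, 7, 0, 2 and 1 in HB and 0 in HE1, and 0 in every Negative list. It had 15 pSKB fragments in the HB library and 0 in the HE1 library. The adjusted p of all of these sites was 0.942 (limma). All but the Ltbp2 site were in no HE1 positive set and entered the test through HB alone.

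The promoter with the smallest p was that of Sfi1, a centrin-binding protein of the centrosome. It held 0 fragments in all HB sets and 158, 89, 2, 10 and 1 in HE1 positive sets. Its Negative lists held 0 in HB and 56, 20, 3, 1 and 0 in HE1, while the pSKB libraries held 1056 fragments for HB and 819 for HE1. Promoters listed at both stages had medians of 48 and 47. Whether the sequence of the Sfi1 promoter recurs elsewhere in the genome was not tested. The difference was 3.14 ± 0.69 (log2, SE), with an adjusted p of 0.0644 in limma. Without the libraries that share fragments it was 0.989. This promoter, too, entered the test through HE1 alone. The difference between the positive and the Negative stage change was 0.75 ± 1.05 (adjusted p = 1.00 in limma).

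The promoters of Hjurp, Iqgap1, Map2k1 and Ddias had the same form. Hjurp, the chaperone of the centromeric histone, held 0 fragments in HB and 33, 28, 4, 1 and 1 in HE1. Iqgap1, a cytoskeletal scaffold, held 0 in HB and 17, 19, 1, 11 and 1 in HE1. Map2k1, which encodes the kinase MEK1, held 0 in HB and 24, 20, 2, 3 and 1 in HE1. Ddias, an apoptosis suppressor induced by DNA damage, held 0, 1, 0, 0 and 0 in HB and 22, 19, 1, 9 and 1 in HE1. Those of Hjurp, Iqgap1 and Map2k1 entered the test through HE1 alone. Each of the 4 was also listed in HE1 Negative cells, and their pSKB fragments in the HB library numbered 99, 120, 106 and 50. They were among 17 promoters (0.149% of 11433) with all HE1 values above all HB values. In the Negative lists this held for 4 of 7912 (0.0506%), and the reverse for 1 (0.0126%).

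A further 9 promoters (0.0787%) had all HB values above all HE1 values. That of Tsen34, a subunit of the tRNA splicing endonuclease, held 13, 15, 4, 1 and 1 fragments in HB and 5, 0, 0, 0 and 0 in HE1, a difference of -1.73 on the log2 scale (limma, adjusted p = 0.999). Those of Tfb2m, a mitochondrial transcription factor, Dcp1a, an mRNA decapping factor, Syngr2, a vesicle protein, and Rabif, a Rab-binding factor, had differences between -1.33 and -1.53. In these 4, HE1 replicates 1 and 2 held between 4 and 12 fragments and HE1 replicates 3 to 5 held 0 or 1.

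**Figure D3:**
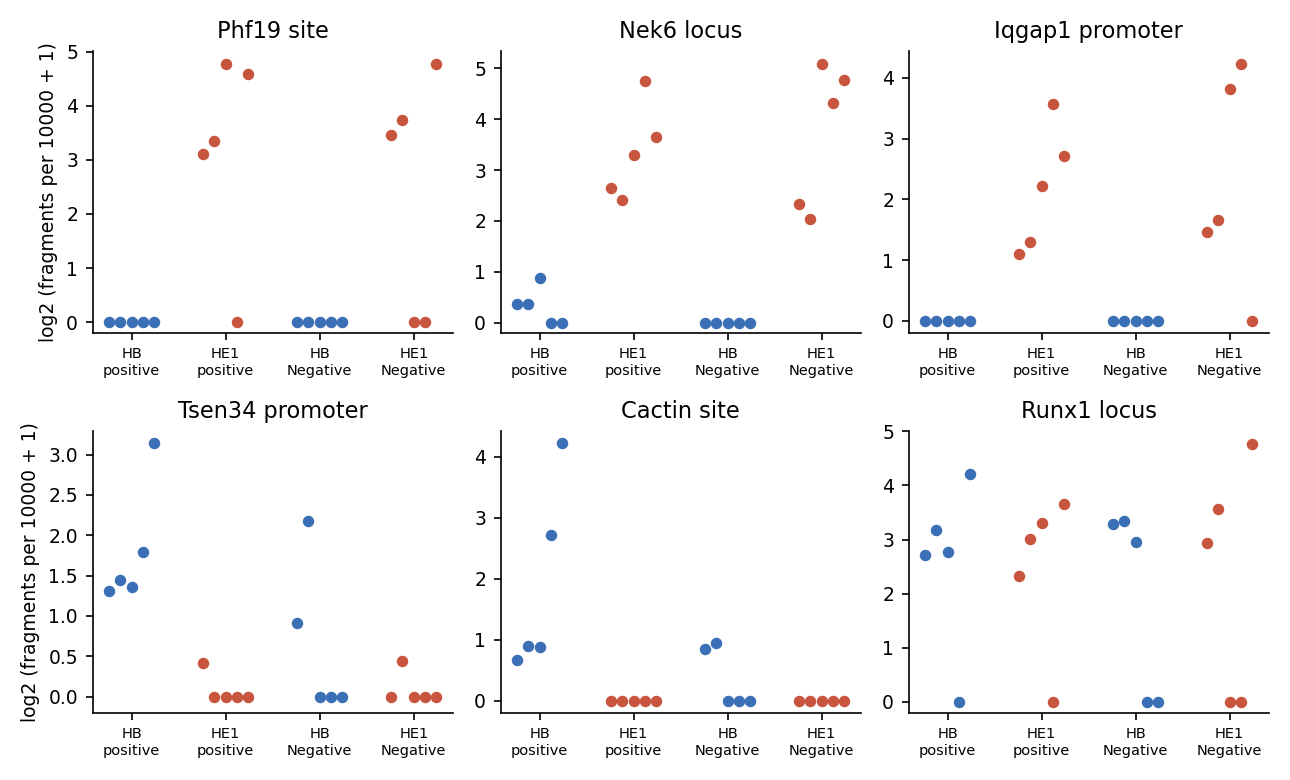
Level of 6 named features (log2 of fragments per 10000 listed fragments plus 1, y axis) in each of the 5 HB and 5 HE1 sets, YFP-positive and Negative, 1 point a set. The Phf19 site and the Iqgap1 promoter were at 0 in all HB sets and above 0 in 4 and 5 HE1 positive and 3 and 4 HE1 Negative sets, while the HB and HE1 values of the Runx1 locus overlapped.

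At the level of loci 7 (0.106%) had all HE1 values above all HB values and 9 (0.137%) the reverse, against 1 (0.0313%) and 2 (0.0627%) in the Negative lists. The Nek6 locus, named for a mitotic kinase, held 1, 1, 1, 0 and 0 fragments in HB and 42, 29, 1, 8 and 1 in HE1. Its Negative lists held 0 in HB and 18, 4, 5, 1 and 1 in HE1. The difference was 3.03 on the log2 scale, with an adjusted p of 0.985 in limma. The pSKB libraries held 14 fragments for HB and 118 for HE1. The Id3 locus, named for an inhibitor of E-box binding factors, held 15, 13, 1, 0 and 0 in HB and 40, 33, 1, 3 and 1 in HE1. In replicates 1 and 2 the HE1 numbers were out of larger lists, and the small HE1 sets held 1 to 3 fragments. Like that of Id3, the Cuedc1 locus had fragments in HB replicates 1 to 3, whereas the Rbx1 locus had none in HB and 26, 24, 2, 2 and 1 in HE1. The Rbx1 locus thus entered the test through HE1 alone.

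Higher in HB were the loci of Gm26661, Cactin, Tnrc18, Ltbp2 and Tcf7l1. The Gm26661 locus held 2, 5, 2, 1 and 1 fragments in HB and 0 in HE1 and in every Negative list. The Tcf7l1 locus, whose gene encodes a repressor of Wnt targets, held 9, 11, 3, 1 and 2 in HB and 12, 9, 0, 0 and 0 in HE1. The Tnrc18 locus held 23, 18, 6, 2 and 1 in HB and 20, 21, 0, 0 and 0 in HE1. In the last 2 the large sets of both stages held similar numbers of fragments, out of larger HE1 lists, and the small HE1 sets held none. All 5 had an adjusted p of 0.985 (limma). The loci of Gm26661 and Cactin were in no HE1 positive set and entered the test through HB alone.

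Regulators of mesoderm, endothelium and blood were named whatever their values. Kdr, which encodes FLK1, held 15, 13, 2, 1 and 0 distal fragments at its locus in HB and 37, 34, 0, 2 and 0 in HE1, a difference of -0.16 on the log2 scale. The pSKB libraries held 56 and 140 fragments of it. Etv2, the ETS factor that starts the hemangioblast programme, had 11, 9, 3, 0 and 0 promoter fragments in HB and 8, 7, 0, 0 and 0 in HE1. The mesodermal factor Hand1 had 17, 17, 8, 0 and 0 locus fragments in HB and 27, 18, 1, 0 and 0 in HE1. No value of these 3 genes passed the test, and their stages overlapped.

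The Runx1 locus held 19, 28, 7, 0 and 1 fragments in HB and 32, 48, 1, 0 and 1 in HE1, a difference of -0.12 on the log2 scale. Tal1 and Lmo2, partners in one DNA-binding complex, differed by -0.01 and 0.29 at their loci, and Gata2 by 0.24. Meis1, a homeobox factor of blood progenitors, held 21, 30, 9, 1 and 0 in HB and 46, 45, 1, 0 and 0 in HE1. Spi1, which encodes the myeloid factor PU.1, had no promoter fragment in any HB list and 3, 2, 0, 0 and 0 in HE1 positive sets. The Spi1 promoter was too rarely listed to be tested.

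Among endothelial genes, the Erg locus, named for an ETS factor of vessels, held 0, 2, 1, 0 and 0 fragments in HB and 17, 14, 0, 0 and 3 in HE1. The difference was 1.38 ± 0.73 (log2, SE; limma, unadjusted p = 0.0594, adjusted p = 0.985), and the pSKB libraries held 10 fragments of it for HB and 45 for HE1. The Cdh5 promoter, of the gene for VE-cadherin, had no fragment in any HB list and 7, 12, 0, 0 and 0 in HE1 positive sets. It had 17 and 41 pSKB fragments and was listed in too few positive sets to be tested. The loci of Cdh5, Sox17, Fli1 and the Notch ligand gene Dll4 differed by 0.79, 1.09, -0.26 and -0.76 on the log2 scale. None of them passed the test.

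Mecom encodes a zinc-finger factor of hemogenic endothelium and stem cells. Its locus held 8, 11, 2, 0 and 2 fragments in HB and 42, 37, 1, 0 and 1 in HE1, a difference of 0.38 ± 0.94 (log2, SE). The distal element whose sequence is given above held 2, 5, 0, 0 and 0 fragments in HB and 5, 6, 1, 0 and 0 in HE1 positive sets. Its Negative lists held 1, 0, 0, 0 and 0 in HB and 5, 1, 0, 0 and 0 in HE1. The difference was 0.59 ± 0.60 (log2, SE; limma, adjusted p = 0.942), and the element had 11 pSKB fragments in the HB and 36 in the HE1 library. It was listed at both stages in both kinds of cells.

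Gene lists for the cell types of this path showed no called member at either level. At loci, 9 of 28 tested mesoderm and hemangioblast genes were higher in HE1 and 19 lower, with a median difference of -0.25 on the log2 scale. Of 31 endothelial genes 15 were higher and 16 lower (median -0.08), and of 21 blood genes 9 and 12 (median -0.12). Of 10 AP-1 and TEAD genes 2 were higher and 8 lower (median -0.39), and of 8 pluripotency genes 2 and 6 (median -0.41). Of 5 smooth muscle genes, another cell type that mesoderm can form, 3 were higher and 2 lower (median 0.10). Over all 6587 loci 35.4% were higher in HE1 and the median was -0.13. At promoters the medians of the 6 lists lay between -0.13 and -0.02, beside -0.06 over all 11433 promoters.

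An unadjusted p under 0.05 was found for 2 of the 106 list promoters tested (1.89%) and 3 of the 103 list loci (2.91%), beside 1.99% of all promoters and 2.28% of all loci, so their number is near the background and the values are a description. The Epas1 promoter, of a hypoxia-inducible factor, differed by 1.36 on the log2 scale, with 21 fragments in 3 HB sets and 32 in 5 HE1 sets. The Cbfa2t3 promoter, of a corepressor in the TAL1 complex, differed by -1.59, with 67 fragments in 5 HB sets and 73 in 2 HE1 sets. These totals are not scaled to list size. Replicates 1 and 2 held 149987 and 129670 promoter fragments in HE1 and 87809 and 87188 in HB. The loci of Bcl11a, Tead3 and Nanog differed by -1.52, -1.47 and -1.56. Tead3 had 15 fragments in 4 HB sets and 0 in HE1, so it entered the test through HB alone.

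The second question was whether the lists of one stage resembled each other more than those of the other stage. For each pair of sets with different numbers, the shared features were divided by those expected from the set sizes. Distal sites of positive sets were shared at 1.06 log2 units above expectation within a stage and at 0.70 between stages. The difference of 0.36 passed the test (exact one-sided permutation test over 252 splits, p = 0.0159). In the Negative lists the values were 0.90 and 0.58, with a difference of 0.32 (exact permutation p = 0.00794, the smallest that this design can give). Cells without reporter activity thus also showed a stage difference, and whether its size differed from that of positive cells was not tested. Promoters differed by 0.038 in positive sets (exact permutation p = 0.246) and by 0.043 in Negative lists (exact permutation p = 0.222).

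**Figure D4:**
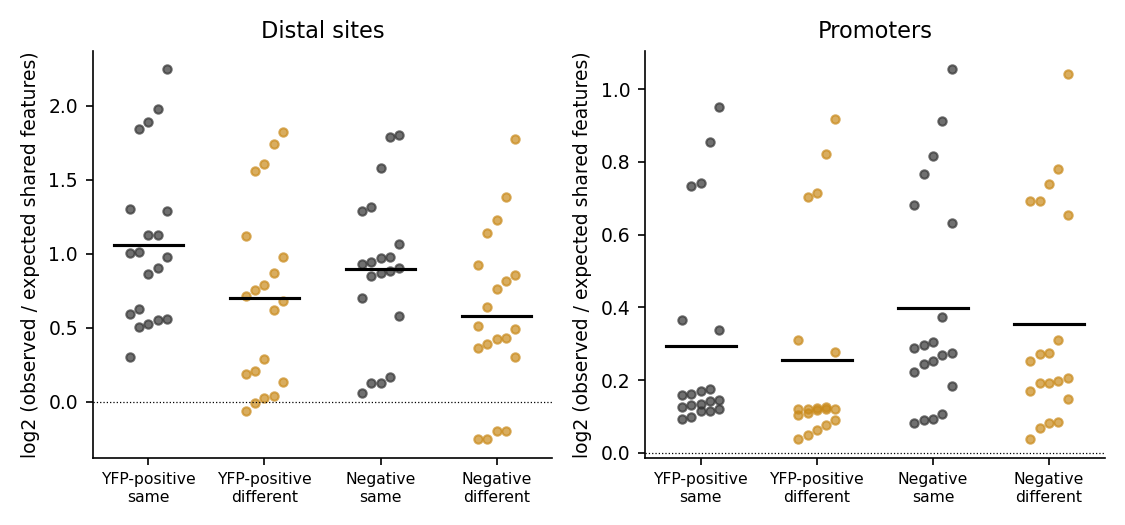
Shared features of each pair of sets (log2 of observed over expected, y axis) for pairs of the same stage and of different stages, with lines at the means, for sites and promoters of positive and Negative cells. Means for sites were 1.06 and 0.70 in positive cells and 0.90 and 0.58 in Negative cells, with wide overlap of single pairs.

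The likeness of distal sites in positive sets passed without the libraries that share fragments (0.358, exact permutation p = 0.00794). It no longer passed when replicate 1, 2 or 3 was left out (exact permutation p = 0.0571 each). Over the 12377 sites listed at both stages the value was -0.001055 in positive sets. Without the sites of 10 or more fragments listed at 1 stage only it was 0.252. Both choices use the stages, so no test is given. With only sites of at least 2 fragments it was 0.173 (exact permutation p = 0.206).

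The third question was whether the distal fragments differed in sequence, counted over the whole of each fragment. AP-1 matches were 0.385 ± 0.0459 per kb in HB and 0.613 ± 0.136 in HE1 positive sets (SD, n = 5 each), higher in HE1 in 5 of 5 replicate numbers (exact permutation p = 0.0238, adjusted over 8 motifs 0.106). By set the values were 0.416, 0.430, 0.405, 0.322 and 0.352 in HB and 0.703, 0.738, 0.539, 0.410 and 0.675 in HE1. The lowest HE1 value, in replicate 4, fell among the HB values, and the other 4 lay above all of them. ETS matches were 2.07 and 2.45 per kb (exact permutation, adjusted p = 0.106), TEAD 0.629 and 0.693 (adjusted p = 0.106) and GATA 0.485 and 0.563 (adjusted p = 0.229, exact permutation). OCT matches were 0.0577 in HB and 0.0435 in HE1. In this measure 0 of 8 motifs passed in positive sets and 0 of 8 in Negative lists, where AP-1 was 0.406 and 0.591 per kb (exact permutation, adjusted p = 0.159).

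HE1 replicate 4 stood apart in fragment length, with a median of 307 bp where the other HE1 sets had 166 to 209 bp, and it contains the Low library that shared 83.0% with a Negative library. Without the libraries that share fragments 4 of 8 motifs passed: AP-1, GATA and ETS at an adjusted p of 0.0212 and RUNX at 0.0476 (exact permutation). The same 4 passed when the share of fragments with a match was counted in all libraries. Longer fragments have more room for a match, and this share keeps the long fragments of HE1 replicate 4. In that set RUNX matches were 0.675 per kb, below every HB positive set, yet were found in 16.2% of fragments, the highest share of the positive sets. Fragments with an AP-1 match made up 6.88% of HB and 11.1% of HE1 positive fragments (exact permutation, adjusted p = 0.0212). For ETS the shares were 30.5 and 36.5%, for GATA 8.29 and 10.4% and for RUNX 13.4 and 15.2%. By this share all 4 were higher in HE1 in 5 of 5 replicate numbers. Per kb in all libraries GATA and RUNX were higher in 4 of 5.

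AP-1 matches were also more frequent at HE1 in cells without reporter activity and in the plasmids. In Negative lists the share of fragments with a match went from 7.65% to 11.2% (exact permutation, adjusted p = 0.0635). For the other 3 motifs the Negative shares were 33.0 and 37.7% (ETS), 9.33 and 9.96% (GATA) and 14.9 and 15.4% (RUNX), with RUNX higher in HE1 in 2 of 5 replicate numbers, and none passed (exact permutation, adjusted p = 0.159, 0.519 and 0.744). Per kb, GATA and RUNX differed by -0.0035 and -0.017 in Negative lists. The HE1 minus HB difference was 4.19 ± 0.609 points in positive and 3.54 ± 1.49 in Negative cells (SD, n = 5 each). The gap of 0.650 points between them did not pass an exact permutation test (p = 0.357, adjusted 0.825). Neither did that of any other of the 8 motifs, in a comparison added after the values had been seen. For AP-1 the difference was larger in positive cells in 3 of 5 replicate numbers. The test took positive and Negative values as independent, although some HE1 libraries of both kinds share fragments. In the pSKB plasmid lists, over fragments in the same sites, AP-1 matches were in 7.82% of HB and 12.8% of HE1 fragments. ETS matches were in 35.1 and 40.6% and GATA matches in 10.0 and 11.6% of them, RUNX matches in 15.0 and 15.8%, and OCT matches in 1.13 and 0.887%. The direction of these 5 was that of the positive sets, and the RUNX step was smaller than that of AP-1.

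**Figure D5:**
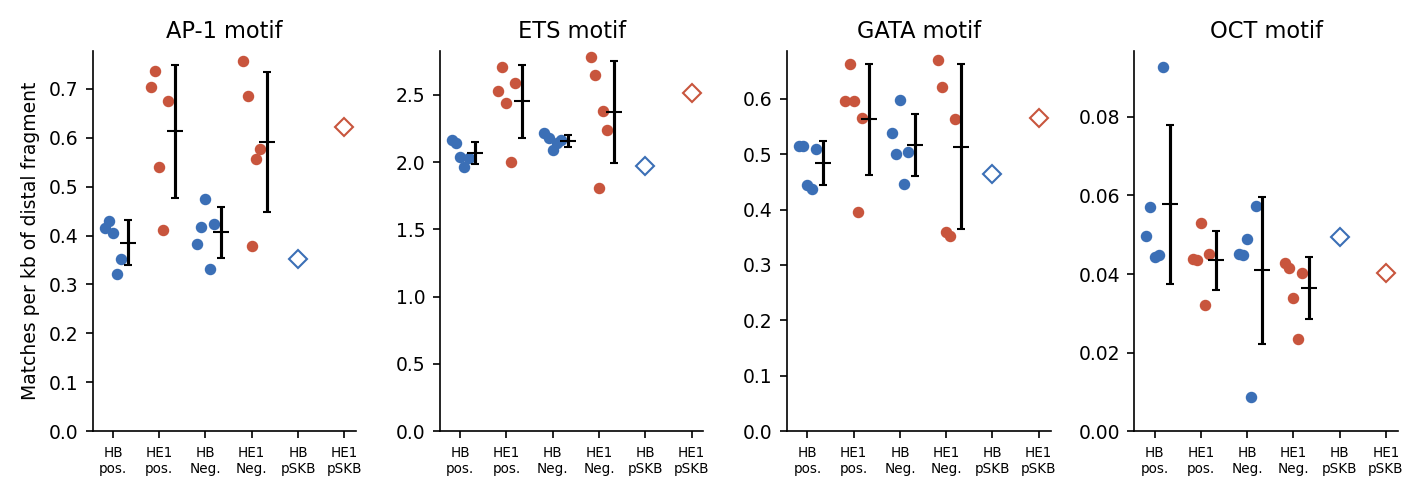
Matches per kb of distal fragments (y axis) to the AP-1, ETS, GATA and OCT motifs in each set, with mean and SD of 5 sets, for HB and HE1, YFP-positive and Negative cells, with diamonds for the pSKB plasmid lists of each stage. AP-1 means were 0.385 and 0.613 in positive sets, beside 0.353 and 0.622 in the plasmid lists.

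In fragment composition 0 of 4 measures passed. Median length was 187.8 bp in HB and 206.4 bp in HE1, GC content 56.9 and 55.9%, the intronic share 39.5 and 42.1% and the median distance to a transcription start 14700 and 15741 bp (exact permutation, adjusted p between 0.0952 and 0.762). The intronic share was higher in HE1 in 5 of 5 replicate numbers. Without the libraries that share fragments it was 3.92 points higher in HE1 and passed (exact permutation, adjusted p = 0.0317).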

How the data were processed

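Distal and promoter fragments of 38 HB and HE1 sorted libraries were compared. Per the labels and methods, the authors trimmed reads with Trim Galore, aligned them to mm10 with Bowtie2, kept uniquely mapped pairs with SAMtools, wrote each pair as an interval with bedtools, removed duplicates, and filtered fragments against HM-1 control, plasmid and ATAC-seq lists. They combined original sequencing with later resequencing. The deposited lists hold fragment coordinates, each fragment once, with no score or count. Between 25 and 30 PCR cycles preceded sequencing, so fragments can be lost by chance, and list size is the only depth. Read counts deposited with the plasmid fragments were not used, only which fragments were listed. Sorted starts were 1 bp above plasmid starts, and coordinates count from 1.

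Features found in 4 or more of the compared sets were tested in limma 3.58.1 (R 4.3.3, trended eBayes), after adding 1 to fragments per 10000 and taking log2, with Benjamini-Hochberg adjustment at 0.05. With the added 1, fitted differences understate changes of rarely listed features and give no bound where a stage is at 0. Single values used exact permutation tests over the sets (Python 3.11.15, two-sided unless stated). Sequence was read with pysam 0.24.0 and samtools 1.23.1. The statistics were tested on simulated data. Named features were those past the threshold, or else the 5 per direction whose stages did not overlap or had the smallest p, 15 fixed genes and the Mecom element. One named feature is not reported here. Groups came from the labels. Members, lists and tests were chosen with earlier results of these data known. Alternatives were other gates, filters, added constants, weights, equal draws, a replicate block, and libraries or replicates left out.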

Additional observations from a re-analysis of the deposited data

Results flagged for a closer look

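In 89 groups of 5 sets, 10 had a highest or lowest set further from the others than Dixon's 95% critical value allows. Chance alone gives about 1 in 20 groups. In HB positive replicate 5, the smallest of these sets, 5 values stood out, in part on 1 or 2 fragments. On the log2 scale of fragments per 10000 plus 1 they were 3.14 at the Tsen34 promoter (1.31 to 1.79 in the other sets), 4.06 at the Syngr2 promoter (1.02 to 1.79), 3.14 at the Rabif promoter (1.44 to 1.79) and 5.18 at the Tcf7l1 locus (1.81 to 2.71). These promoters and this locus were named for HB values above all HE1 values, so each needed a fragment in this small set. The rate of 1 in 20 does not apply to them. The fifth was the OCT motif, at 0.0927 matches per kb where the others had 0.0442 to 0.0572.

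In HE1 positive replicate 3 the Mecom element reached 3.3 on that log2 scale from 1 fragment, and 0 to 0.917 in the other sets. HE1 positive replicate 4 had a GC content of 57.4% where the others had 55.2 to 55.8%, and HE1 Negative replicate 3, which shared most fragments with a library of that set, had 36.8% intronic fragments where the others had 43.4 to 44.9%. In HB Negative lists, RUNX matches were 1.04 per kb in replicate 5 (0.751 to 0.784 in the others) and OCT matches 0.00875 per kb in replicate 4 (0.0449 to 0.0573).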

How the results depend on the processing

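Over the alternatives tried, the values that answer a comparison kept their side of the threshold, or moved within the spread, in 234 cases, passed it only under the alternative in 15, no longer passed in 9, moved in 7 and reversed in 2. With voom weights the counts of called features rose from 0 to 5 sites, 27 promoters and 23 loci, and to 60 sites and 6 loci for the positive against Negative stage change. From 0, promoters rose to 1 (Sfi1) with plasmid fragments only, and leaving out each replicate gave 0 to 1, the 1 without replicate 5. Negative sites rose to 1 with a fragment in at least 2 sets. Same-numbered HB and HE1 positive sets were partly alike: their deviations correlated over sites at 0.17, 0.23, 0.042, 0.25 and 0.20, and they shared a median of 16.6% of fragments, against 6.81% within a stage. Since replicate 3 lay under 0.1 and their own number was the best match for replicates 2, 4 and 5 only, the numbers were not taken to pair the sets. With the replicate block every count of called features stayed at 0, and the likeness of sites was 0.3586 in positive and 0.3185 in Negative lists, both with an exact permutation p = 0.0625, the smallest that 32 swaps allow. With at least 2 fragments a feature, likeness (exact permutation tests) was 0.1734 (positive sites), 0.2121 (Negative sites, p = 0.09524), -0.03684 (positive promoters, reversed) and 0.2994 (Negative promoters, p = 0.04762). Leaving out each replicate gave 0.3103 to 0.4058 for positive and 0.3029 to 0.3362 for Negative sites. Positive sites no longer passed without replicate 1, 2 or 3, and Negative sites without replicate 1 or 2 (exact permutation p = 0.0571 each). Without any other replicate they passed (exact permutation p = 0.0286 each). Over features listed at both stages likeness was -0.001055 and 0.08986 for positive and Negative sites and 0.002823 and 0.01521 for promoters, and without features of 10 or more fragments listed at 1 stage it was 0.2521, 0.213, 0.01501 and 0.02041. Motifs passing rose from 0 to 4 by percent of fragments, 4 without sharing libraries and 6 with plasmid fragments only. Composition measures passing rose from 0 to 1 without sharing libraries and 3 with plasmid fragments only, and leaving out each replicate gave 0 to 3, the 3 without replicate 4. Reversed were TEAD per kb with High gates only (-0.01378), SOX per kb without replicate 1 (-0.01177) and replicate 2 (-0.01554; range over left-out replicates -0.01554 to 0.0253), and length with High gates only (-0.2), without sharing libraries (-3.4), with plasmid fragments only (-1.1) and without replicate 4 (-3; range over left-out replicates -3 to 29.25). The causes were not tested. Of 59 named features 7 passed with voom weights. Most sets of replicates 3 to 5 held so few fragments that a feature there was 0, 1 or 2 fragments, which limits what could be called.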
